A study of Mus musculus with 11 samples.

Results

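Transcripts of S100 proteins, annexins, galectins, vimentin and cysteine-rich protein 1 were followed in mouse CD8+ effector T cells. As a set they are known to mark effector and memory over naive T cells. The set was given by name and held 10 genes: S100a4, S100a6, S100a10 and S100a11 (S100 proteins), Anxa1 and Anxa2 (annexins), Lgals1 and Lgals3 (galectins), Vim (vimentin) and Crip1 (cysteine-rich protein 1). Of these 10, 9 had a probe set annotated to 1 gene symbol, and these 9 were among the 14795 genes tested, of 18193 with such a probe set on the array. The probe set listed for S100a11 also listed other symbols, so S100a11 was not analysed here. The 9 genes were covered by 17 probe sets, of which 15 lay above the filter on dim values (log2 level above 1.54, the 40th percentile, on at least 2 arrays); every one of the 9 genes lay above it on all 11 arrays.

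The arrays measured RNA of CD8+ T cells from pmel-1 mice, which carry a transgenic T cell receptor against a peptide of the melanocyte protein gp100. Before culture the cells were enriched on CD44, the CD44- fraction being taken as naive and the CD44+ fraction as central memory. All groups were then treated alike: a culture on plate-bound CD3 and CD28 antibodies for a week, a restimulation by allogeneic feeder cells carrying a peptide of human gp100 (hgp100), and medium with IL2 at 10 cetus units over 2 weeks in all. The groups differed in the starting fraction and in a final CD3/CD28 stimulation of 4 h or none, and gave 3 memory-derived unstimulated arrays, 3 memory-derived stimulated arrays, 2 naive-derived unstimulated arrays and 3 naive-derived stimulated arrays. Both origins are thus cultured effectors and not resting cells, the CD44 fractions are enrichments, and whether feeder cells remained at harvest is not given in the sources used here. Array numbers below are the replicate numbers of the sample titles. The design text describes the replicates as independent experiments, and no source used here says that arrays of different groups with the same number came from the same one.

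Most S100 proteins are small calcium sensors that change shape on binding calcium and then bind partner proteins. Annexins bind acidic membrane lipids in the presence of calcium, and the S100a10 protein forms a complex with annexin A2 at the plasma membrane. Galectins bind galactose-containing sugars on glycoproteins of the cell surface, and vimentin is the intermediate filament protein of lymphocytes and mesenchymal cells. Their transcripts are known to be low in naive CD8+ T cells and to rise as these become effector and memory cells.

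Before stimulation, 7 of the 9 transcripts were higher in memory-derived than in naive-derived cells, a direction in which 14.9% of all tested genes passed. Anxa1 differed most, at a level 4.37-fold lower in naive-derived cells, and S100a4 followed at 2.53-fold lower. The final stimulation lowered 6 of the 9 transcripts in memory-derived cells, as it did 17.3% of all tested genes, and raised 1, Anxa2, as it did 14.3%. In naive-derived cells 0 members passed the test on stimulation (limma), beside 0.0135% of all genes as lower and 0% as higher. After stimulation, 3 members (S100a10, Anxa2 and Lgals1) were lower in naive-derived than in memory-derived cells, beside 2.01% of all genes. A change passed when the adjusted p was below 0.05 (limma, two-sided, Benjamini-Hochberg over the 14795 genes of a comparison), and each difference is a fitted log2 difference with its standard error (SE). Levels and differences are on a log2 scale converted from deposited values taken to be log10; that base was inferred, so folds hold on that scale.

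A few facts of the arrays bear on every comparison. Of 10 CD8 T cell markers, 9 had a probe set annotated to 1 gene symbol and all 9 lay above the filter. Cd4 lay below the filter on all 11 arrays. By origin 1 of the 9 passed as higher and 1 as lower in naive-derived cells before stimulation, beside 10.9% and 14.9% of all genes. After it 3 passed as higher and 1 as lower, beside 1.69% and 2.01%. Cd8a had means of 8.61 and 7.83 in memory-derived and 9.65 and 9.07 in naive-derived cells, before and after stimulation. Those of Cd28 were 7.54, 6.51, 5.80 and 5.46 in that order. Their part in the origin results was not tested. The mean level over the CD8 list was itself lower after stimulation: it lay between 8.40 and 8.49 before and between 7.84 and 7.92 after it in memory-derived cells, and between 8.29 and 8.37 before and between 8.03 and 8.20 after it in naive-derived cells. The 3' minus 5' difference of actin on the deposited log10 scale, a sign of RNA quality, was between 0.263 and 0.351 before and between 0.431 and 0.520 after stimulation in memory-derived cells. In naive-derived cells it was between 0.462 and 0.478 before and between 0.581 and 0.782 after stimulation. In each of the 4 pairwise comparisons below its values in the groups compared lay apart, and its part in the results was not tested. Whether arrays shared a pool of mice is not given in the sources used here, and in bulk RNA fewer cells with a transcript and less of it per cell cannot be told apart.

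**Figure D1:**
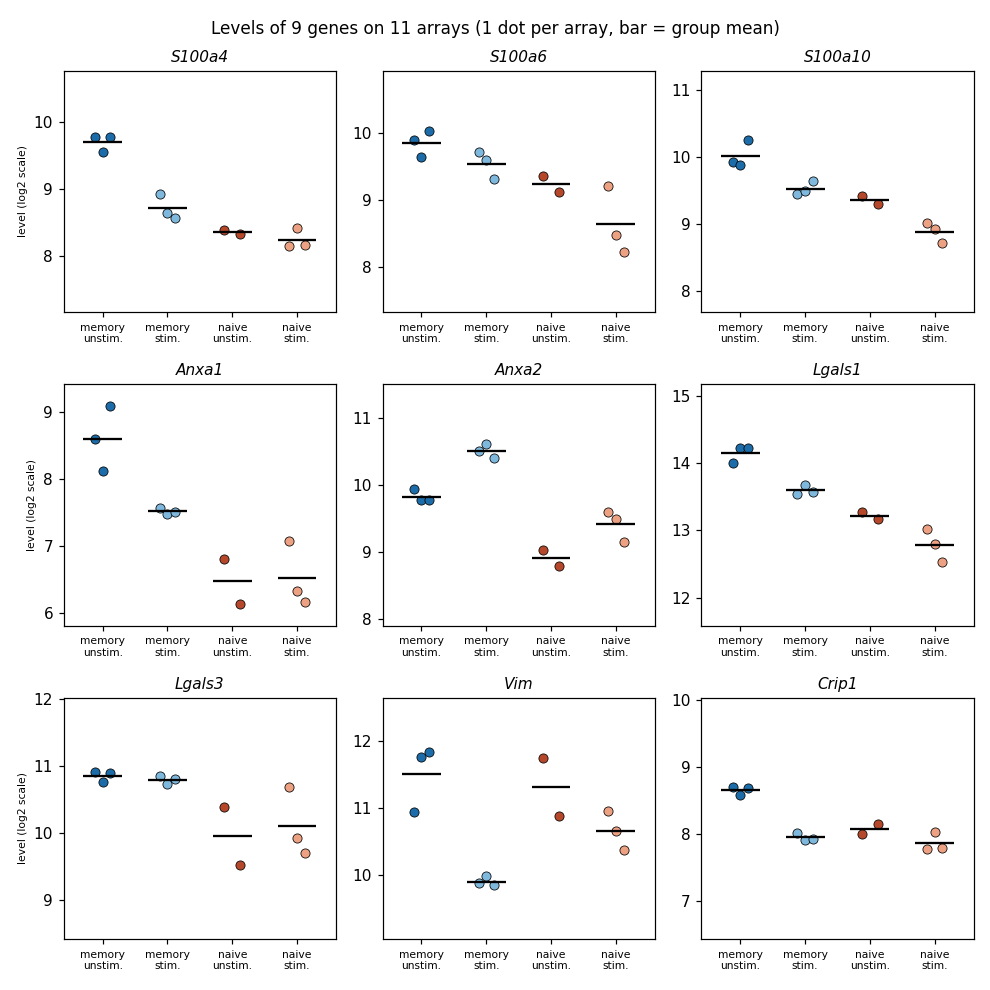
Level of each of the 9 genes on each array (log2 scale, vertical axes all span the same range but start at different levels), with 1 dot per array and a bar at the group mean for 4 groups of 2 or 3 arrays. In 8 panels, all but that of Vim, the memory-derived unstimulated arrays lie above the naive-derived unstimulated arrays without overlap, as 53.4% of all genes do in either direction.

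The promoters of the 3 members with the largest falls after stimulation of memory-derived cells (Vim, Anxa1 and S100a4) and of Anxa2, the member that rose, are shown to set members that moved apart side by side. Each runs from 250 bases before to 50 bases after the start site in RefSeq (build GRCm38.p6), 5' to 3' on the gene's strand, at chr3:90603520-90603819 (plus strand) for S100a4, chr19:20390622-20390921 (minus strand) for Anxa1, chr9:69453433-69453732 (plus strand) for Anxa2 and chr2:13574061-13574360 (plus strand) for Vim. Capitals mark TATAAA, the core of a TATA box, and TGANTCA, the core of an AP-1 site, and were searched on both strands.
S100a4: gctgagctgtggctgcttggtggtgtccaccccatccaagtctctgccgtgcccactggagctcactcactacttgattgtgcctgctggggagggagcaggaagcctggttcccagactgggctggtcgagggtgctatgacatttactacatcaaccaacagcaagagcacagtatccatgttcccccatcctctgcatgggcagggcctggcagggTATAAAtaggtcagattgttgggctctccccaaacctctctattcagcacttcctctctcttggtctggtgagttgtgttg
Anxa1: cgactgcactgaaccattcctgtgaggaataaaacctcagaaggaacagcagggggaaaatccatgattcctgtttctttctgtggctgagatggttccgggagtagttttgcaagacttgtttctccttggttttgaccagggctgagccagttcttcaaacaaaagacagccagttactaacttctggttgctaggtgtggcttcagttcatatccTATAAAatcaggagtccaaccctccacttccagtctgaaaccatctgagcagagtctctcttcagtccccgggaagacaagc
Anxa2: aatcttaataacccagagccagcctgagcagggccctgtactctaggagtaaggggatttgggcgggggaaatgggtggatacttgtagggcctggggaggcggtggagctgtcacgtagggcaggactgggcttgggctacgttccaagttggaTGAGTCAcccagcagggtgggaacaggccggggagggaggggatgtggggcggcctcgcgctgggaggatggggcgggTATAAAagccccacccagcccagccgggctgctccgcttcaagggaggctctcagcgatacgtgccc
Vim: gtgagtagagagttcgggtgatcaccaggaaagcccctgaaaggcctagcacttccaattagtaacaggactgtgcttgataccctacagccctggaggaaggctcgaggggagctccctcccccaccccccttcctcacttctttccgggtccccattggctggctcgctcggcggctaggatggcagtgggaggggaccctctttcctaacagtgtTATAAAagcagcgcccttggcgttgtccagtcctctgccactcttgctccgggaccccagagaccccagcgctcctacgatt
TATAAA was found in these 4 of the 8 members with a promoter in the table, with its first base at -31 in S100a4, -32 in Anxa1, -17 in Anxa2 and -32 in Vim, and it was in 13.6% of all 32851 promoters of that length. The Anxa2 promoter also held TGANTCA, with its first base at -95, as did that of S100a11, against 7.81% of all promoters. GGGCGG, a GC box, was in 4 of the 8 (S100a11, Anxa2, Lgals3 and Crip1), against 35.7% of all promoters, and is not marked. No match of one motif overlapped a match of another in these 8 promoters, and a match describes these letters and not a site in use.

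S100a4, a regulator of non-muscle myosin and cell movement, was highest in memory-derived cells before stimulation. S100a4 lay at 9.78, 9.56 and 9.78 before and at 8.93, 8.64 and 8.57 after stimulation in memory-derived cells, and at 8.40 and 8.34 before and at 8.16, 8.42 and 8.17 after it in naive-derived cells. The memory-derived unstimulated arrays stood above all others, and the naive-derived groups overlapped each other. Stimulation lowered S100a4 in memory-derived cells with a log2 difference of -0.99 (SE 0.14, adjusted p = 0.000586), which is 1.98-fold lower and larger than the spread between arrays. Naive-derived cells had less S100a4 than memory-derived cells before stimulation, at -1.34 (SE 0.15, adjusted p = 0.000341). Both calls held in every alternative run. After stimulation the origin difference was -0.47 (SE 0.14, adjusted p = 0.103), and within naive-derived cells the difference on stimulation was -0.12 (SE 0.15, adjusted p = 0.893). The difference in response between origins was 0.87 (SE 0.21, adjusted p = 0.0529), with a 95% interval of 0.41 to 1.33, which missed the threshold; without memory-derived unstimulated array 2 it passed at an adjusted p of 0.0265 (limma).

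S100a6 (calcyclin), a partner of the calcyclin-binding protein encoded by Cacybp, passed in no comparison. S100a6 lay at 9.90, 9.64 and 10.03 before and at 9.71, 9.60 and 9.31 after stimulation in memory-derived cells, and at 9.36 and 9.11 before and at 9.21, 8.48 and 8.22 after it in naive-derived cells. The naive-derived stimulated arrays spread most, array 1 lying highest, and naive-derived arrays of both kinds stood below all memory-derived unstimulated arrays. The origin difference was -0.62 (SE 0.26, adjusted p = 0.106) before and -0.90 (SE 0.23, adjusted p = 0.0595) after stimulation. Without naive-derived stimulated array 1 both passed, at adjusted p values of 0.0332 and 0.00750 (limma), and the one after stimulation also passed with a stricter filter on dim probe sets, at 0.0346, and with an intensity trend and robust prior, at 0.0233. The difference of S100a6 on stimulation was -0.31 (SE 0.23, adjusted p = 0.346) in memory-derived and -0.60 (SE 0.26, adjusted p = 0.586) in naive-derived cells.

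S100a10, the S100 protein that binds annexin A2 and helps carry membrane channels and Ahnak to the cell surface, was lower after stimulation of memory-derived cells and lower in naive-derived cells in both states. S100a10 lay at 9.94, 9.88 and 10.26 before and at 9.45, 9.50 and 9.66 after stimulation in memory-derived cells, and at 9.42 and 9.31 before and at 9.03, 8.92 and 8.73 after it in naive-derived cells. Memory-derived unstimulated arrays were highest, the naive-derived stimulated arrays lowest, and of the 4 groups only the middle pair, memory-derived stimulated and naive-derived unstimulated, were close: their nearest arrays lay at 9.45 and 9.42. S100a10 fell on stimulation of memory-derived cells with a log2 difference of -0.49 (SE 0.14, adjusted p = 0.0202) and was lower in naive-derived cells with a log2 difference of -0.66 (SE 0.16, adjusted p = 0.0105) before and -0.64 (SE 0.14, adjusted p = 0.0284) after stimulation. In naive-derived cells the difference on stimulation was -0.47 (SE 0.16, adjusted p = 0.451). The groups there did not overlap, as for 26.4% of all genes in either direction. The 3 calls of S100a10 that passed were narrow. The fall in memory-derived cells was lost without memory-derived unstimulated array 3 (0.0628), memory-derived stimulated array 1 (0.0725) or array 2 (0.0662), all adjusted p values from limma. The origin difference before stimulation was lost without naive-derived unstimulated array 2 (0.0854). That after stimulation was lost without any of memory-derived stimulated arrays 1, 2 and 3 (0.0743, 0.0857 and 0.116) or naive-derived stimulated arrays 2 and 3 (0.0643 and 0.105).

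The 3 probe sets of S100a10 had the same sign in all 4 pairwise comparisons but not the same size. The one that stands for the gene above had the highest mean and is of a type whose probes may bind other transcripts. The second, close to it in mean level (9.42 against 9.46), gave a larger fall on stimulation of memory-derived cells, -0.97 (SE 0.13, adjusted p = 0.000414), and a larger origin difference before stimulation, -1.19 (SE 0.14, adjusted p = 0.000437), with p values adjusted over all probe sets tested. The remaining dim one, with a mean of 2.75, passed in the same 2 comparisons and, unlike the others, gave -0.06 for origin after stimulation. The difference in response between origins was 0.02 (SE 0.21, adjusted p = 0.972) on the probe set that stands for the gene, against 0.60 (SE 0.19, adjusted p = 0.106) and 0.61 (SE 0.28, adjusted p = 0.232) on the other ones, and 0.41 (adjusted p = 0.183) with the mean of the 3.

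Anxa1, the glucocorticoid-induced annexin that acts through formyl peptide receptors, had the largest origin difference of the set. Anxa1 lay at 8.59, 8.12 and 9.09 before and at 7.57, 7.48 and 7.51 after stimulation in memory-derived cells, and at 6.81 and 6.14 before and at 7.07, 6.34 and 6.17 after it in naive-derived cells. Memory-derived arrays of both kinds stood above all naive-derived arrays, and the naive-derived groups overlapped. Anxa1 was lower in naive-derived cells before stimulation with a log2 difference of -2.13 (SE 0.32, adjusted p = 0.00119), a call that held in every alternative. It fell on stimulation of memory-derived cells with a log2 difference of -1.08 (SE 0.28, adjusted p = 0.0140), 2.12-fold; without memory-derived unstimulated array 3, the highest array, the fall was -0.84 and did not pass (adjusted p = 0.0606, limma). After stimulation the origin difference was -0.99 (SE 0.28, adjusted p = 0.0897), and it passed without naive-derived stimulated array 1, at 0.0359. In naive-derived cells the difference on stimulation was 0.05 (SE 0.32, adjusted p = 0.985). The difference in response between origins was 1.13 (SE 0.43, adjusted p = 0.145). Its second probe set lay below the filter on all arrays.

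Anxa2, the annexin that pairs with S100a10, was the one member that rose on stimulation. Anxa2 lay at 9.95, 9.77 and 9.77 before and at 10.51, 10.61 and 10.40 after stimulation in memory-derived cells, and at 9.03 and 8.80 before and at 9.60, 9.49 and 9.16 after it in naive-derived cells. The 4 groups did not overlap anywhere in their order, from naive-derived unstimulated, through naive-derived stimulated and memory-derived unstimulated, to memory-derived stimulated arrays. Stimulation raised Anxa2 in memory-derived cells by 0.68 (SE 0.14, adjusted p = 0.00477), 1.60-fold. In naive-derived cells the difference was 0.50 (SE 0.16, adjusted p = 0.436), which did not pass the threshold over all genes. The groups there did not overlap, as for 26.4% of all genes in either direction. The difference in response between origins was -0.18 (SE 0.21, adjusted p = 0.668), with a 95% interval of -0.65 to 0.30. Anxa2 was lower in naive-derived cells both before, with a log2 difference of -0.92 (SE 0.16, adjusted p = 0.00244), and after stimulation, with a log2 difference of -1.09 (SE 0.14, adjusted p = 0.00185). All 3 calls held with any 1 array left out. They rest on 1 probe set: a second one of much lower level (mean 3.46) gave 0.07 (SE 0.25, adjusted p = 0.879) on stimulation of memory-derived cells and -0.06 and 0.10 for origin, the third lay below the filter, and with the mean of the 3 probe sets none of the 3 calls passed (adjusted p 0.166, 0.197 and 0.143, limma). That mean takes in the probe set below the filter (mean 0.73), so it cannot decide whether the calls hold.

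**Figure D2:**
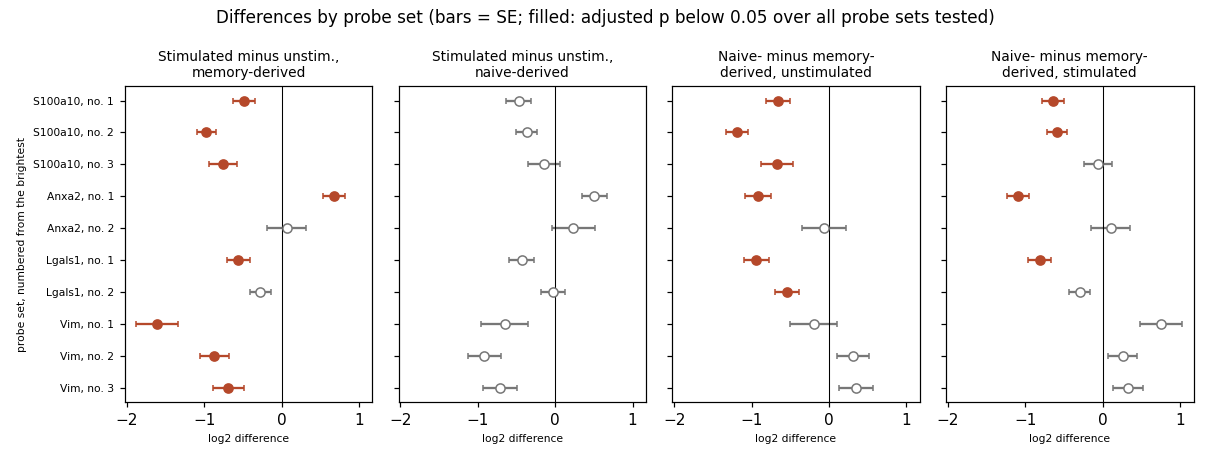
Fitted log2 differences (horizontal axis, with SE bars) for each tested probe set of the 4 members that have several, in 4 comparisons; filled red symbols passed at an adjusted p below 0.05 over all probe sets. The probe sets of S100a10 and Lgals1 lie on 1 side of 0 within each comparison, the second probe set of Anxa2 stays between -0.06 and 0.24, and those of Vim lie on both sides for origin before stimulation.

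Lgals1 (galectin-1), a secreted lectin that can restrain T cells, had levels near the top of the measured range, which ended at 15.1. Lgals1 lay at 14.01, 14.23 and 14.23 before and at 13.54, 13.68 and 13.57 after stimulation in memory-derived cells, and at 13.27 and 13.17 before and at 13.02, 12.80 and 12.53 after it in naive-derived cells. The groups did not overlap and ran from memory-derived unstimulated down to naive-derived stimulated arrays. Lgals1 fell on stimulation of memory-derived cells with a log2 difference of -0.56 (SE 0.14, adjusted p = 0.0122) and was lower in naive-derived cells with a log2 difference of -0.94 (SE 0.16, adjusted p = 0.00214) before and -0.81 (SE 0.14, adjusted p = 0.00995) after stimulation. All 3 calls held with any 1 array left out. In naive-derived cells the difference on stimulation was -0.43 (SE 0.16, adjusted p = 0.514). The second probe set passed for origin before stimulation, at -0.55 (SE 0.15, adjusted p = 0.0263), and did not pass on stimulation of memory-derived cells, at -0.27 (SE 0.14, adjusted p = 0.170), or for origin after stimulation, at -0.30 (SE 0.14, adjusted p = 0.329).

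Lgals3 (galectin-3), which cross-links surface glycoproteins into lattices, was lower in naive-derived cells before stimulation. Lgals3 lay at 10.90, 10.75 and 10.89 before and at 10.85, 10.72 and 10.80 after stimulation in memory-derived cells, and at 10.38 and 9.52 before and at 10.68, 9.93 and 9.69 after it in naive-derived cells. All memory-derived arrays lay between 10.72 and 10.90, above every naive-derived array, while the naive-derived arrays spread from 9.52 to 10.68 with array 1 highest in both states. Lgals3 was lower in naive-derived cells before stimulation with a log2 difference of -0.90 (SE 0.29, adjusted p = 0.0408), a call lost without any of 7 of the 11 arrays. The adjusted p was 0.0895, 0.0580 and 0.0958 without memory-derived unstimulated arrays 1, 2 and 3, 0.0551, 0.0558 and 0.0558 without memory-derived stimulated arrays 1, 2 and 3, and 0.357 without naive-derived unstimulated array 2 (limma). The call was also lost with no filter on dim probe sets, at 0.0523, with only the groups compared in the fit, at 0.0545, and with arrays 1 and 2 of each group only, at 0.108. After stimulation the origin difference was -0.69 (SE 0.26, adjusted p = 0.203), and it passed without naive-derived stimulated array 1, at 0.0427. Stimulation gave -0.06 (SE 0.26, adjusted p = 0.895) in memory-derived cells, with a 95% interval of -0.63 to 0.51, and 0.15 (SE 0.29, adjusted p = 0.936) in naive-derived cells.

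Vim had the largest change on stimulation of memory-derived cells of the 9 and no origin difference that passed. Vim lay at 10.94, 11.76 and 11.84 before and at 9.88, 9.98 and 9.86 after stimulation in memory-derived cells, and at 11.75 and 10.88 before and at 10.96, 10.65 and 10.38 after it in naive-derived cells. The memory-derived stimulated arrays were the lowest of all, from 9.86 to 9.98, and the unstimulated groups of the 2 origins overlapped. Vim fell on stimulation of memory-derived cells with a log2 difference of -1.61 (SE 0.27, adjusted p = 0.00156), 3.05-fold, in every alternative run. In naive-derived cells the difference was -0.65 (SE 0.31, adjusted p = 0.601). Origin gave -0.20 (SE 0.31, adjusted p = 0.689) before stimulation and 0.76 (SE 0.27, adjusted p = 0.186) after it. The second and the third probe set of Vim also fell on stimulation of memory-derived cells, with a log2 difference of -0.87 (SE 0.19, adjusted p = 0.00587) and -0.69 (SE 0.20, adjusted p = 0.0234). In naive-derived cells they gave -0.92 and -0.71 (adjusted p = 0.308 and 0.452), and the difference in response was -0.05 and -0.03 on them against 0.96 (adjusted p = 0.192) on the one that stands for the gene. For origin before stimulation they had the opposite sign, 0.31 and 0.35, and did not pass.

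Crip1, a small protein with a LIM zinc-binding domain, set memory-derived unstimulated cells apart from all others. Crip1 lay at 8.69, 8.57 and 8.69 before and at 8.02, 7.91 and 7.92 after stimulation in memory-derived cells, and at 7.997 and 8.15 before and at 7.77, 8.02 and 7.79 after it in naive-derived cells. The other 3 groups overlapped among themselves. Crip1 fell on stimulation of memory-derived cells with a log2 difference of -0.70 (SE 0.12, adjusted p = 0.00150), in every alternative run, and was lower in naive-derived cells before stimulation with a log2 difference of -0.58 (SE 0.13, adjusted p = 0.00926); without naive-derived unstimulated array 1 the latter did not pass, at an adjusted p of 0.0867 (limma). After stimulation the origin difference was -0.09 (SE 0.12, adjusted p = 0.776), with a 95% interval of -0.35 to 0.17. The difference on stimulation of naive-derived cells was -0.22 (SE 0.13, adjusted p = 0.717), and the difference in response between origins was 0.49 (SE 0.18, adjusted p = 0.136).

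**Figure D3:**
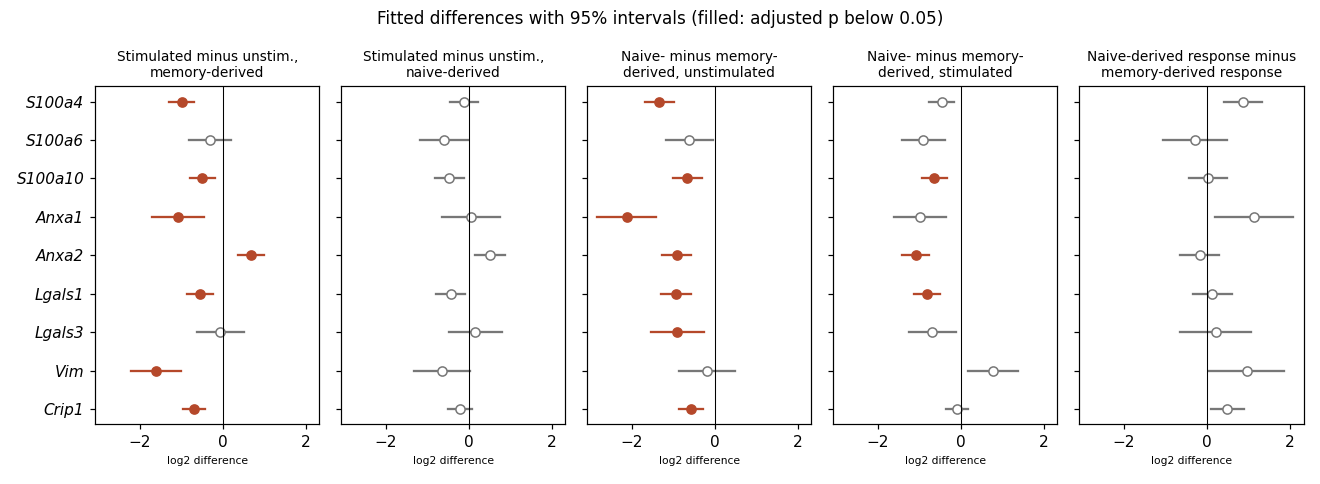
Fitted log2 difference (horizontal axis) with its 95% interval for each gene in the 4 pairwise comparisons and in the difference between the 2 responses; filled red symbols passed at an adjusted p below 0.05. Of 9 genes, 6 passed as lower and 1 as higher on stimulation of memory-derived cells, 7 as lower in naive-derived cells before stimulation, 3 as lower after it, and 0 in the other 2 panels.

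Counted over the set, stimulation of memory-derived cells lowered 6 of 9 members (S100a4, S100a10, Anxa1, Lgals1, Vim and Crip1) and raised 1 (Anxa2), where 17.3% of all tested genes passed as lower and 14.3% as higher. The median difference of the 9 was -0.56, against 0.00 over all tested genes. Because all arrays hold the same sorted values, the normalization itself keeps the median over all genes near 0 in every comparison. Groups did not overlap for 7 of 9 members, against 46.6% of all genes in either direction. Of the 9 CD8 T cell markers, 6 also fell in memory-derived cells and 0 rose, with a median of -0.55, and in naive-derived cells 0 passed with limma, with a median of -0.34; their part in the members' result was not tested. In naive-derived cells 0 members passed with limma, where 0.0135% of genes passed as lower and 0% as higher, and 4 members (S100a6, S100a10, Anxa2 and Lgals1) had an unadjusted p below 0.05, as did 1252 of all 14795 genes. The median was -0.22, against 0.01 over all genes, and groups did not overlap for 3 of 9 members, against 26.4% of genes. The naive-derived comparison rests on 2 and 3 arrays.

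Origin before stimulation gave 7 of 9 members lower in naive-derived cells and 0 higher, where 14.9% of all genes passed as lower and 10.9% as higher. All 9 differences were negative on the probe sets that stand for the genes, with a median of -0.90 against -0.01 over all genes. That of Vim was -0.20 and did not pass, and its other probe sets gave 0.31 and 0.35. Vim was also positive with the mean of its probe sets, at 0.15, and without naive-derived unstimulated array 2, at 0.24. Groups did not overlap for 8 of 9 members, against 53.4% of genes. After stimulation 3 of 9 members passed as lower and 0 as higher, where 2.01% of genes passed as lower and 1.69% as higher. The median was -0.69, against -0.01 over all genes, and groups did not overlap for 8 of 9 members (Vim in the opposite direction to the other 7), against 25.7% of genes. Scaled to the hybridization controls, 125 of all genes passed as higher and 244 as lower after stimulation, against 250 and 298 as deposited. Then 3 members passed as lower, with Anxa1 in place of S100a10. Leaving out naive-derived stimulated array 1 raised the count of members after stimulation to 6. Naive-derived unstimulated array 1 stayed in that fit. For S100a6, S100a10, Anxa1, Anxa2, Lgals1, Lgals3 and Vim, but not S100a4 or Crip1, naive-derived array 1 was the highest of its group in both states.

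Levels of markers of other cells also lay apart between the origins for some lists. The mean level of 15 macrophage, monocyte, dendritic cell and granulocyte markers lay between 2.24 and 2.35 before and between 2.13 and 2.23 after stimulation in memory-derived cells, and between 1.93 and 2.04 before and between 1.71 and 2.07 after it in naive-derived cells. S100a8, S100a9 and Mpeg1 of that list lay below the filter on all arrays. Of the other 12, 5 had lower means in naive-derived than in memory-derived cells in both states, 3 had higher means in both and 4 differed by state; 4 passed as lower in naive-derived cells in each state and 0 as higher. The brightest were Cd68 and Itgax. Cd68 had group means of 5.24, 4.78, 3.57 and 3.47 and Itgax of 6.27, 5.58, 4.50 and 4.35 in memory-derived cells before and after stimulation and naive-derived cells before and after it. Of the markers above the filter on all arrays, Adgre1 had higher means in naive-derived cells, 1.69, 1.80, 2.00 and 1.97 in the same order, and Csf1r had means of 2.46, 2.77, 2.80 and 2.73. Of the markers of CD4, regulatory and gamma-delta T cells and NK cells, 5 had a probe set annotated to 1 gene symbol. These averaged 2.19 to 2.59 on memory-derived and 2.81 to 2.91 on naive-derived arrays. The gap lay in Ctla4, which activated CD8 T cells also express, with means of 4.72, 5.28, 7.82 and 7.95; Zbtb7b (3.03, 2.98, 2.76 and 2.82) and Ncr1 (1.51, 1.44, 1.19 and 1.25) had lower means in naive-derived cells, and Cd4 lay below the filter. The 7 fibroblast and stromal markers, cells that also express Vim, S100a4 and S100a6, averaged 1.51 to 1.62 on memory-derived arrays, whereas in naive-derived cells they averaged 1.21 to 1.44 before and 1.45 to 1.55 after stimulation. The 7 B cell markers averaged 1.32 to 1.58 on memory-derived and 1.55 to 1.79 on naive-derived arrays, with Cd79a and Ms4a1 below the filter on all, and the 5 erythroid and platelet markers averaged 1.33 to 1.84 on all arrays. The part of these cells in the origin and stimulation results was not tested.

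Whether members responded differently to stimulation in the 2 origins was tested directly. Of 9 members 0 passed with limma, where 1.62% of all genes passed as higher (a response more positive in naive-derived cells) and 1.09% as lower. At an unadjusted p below 0.05 there were 4 (S100a4, Anxa1, Vim and Crip1), all positive, and 3454 of all genes. Of the 9 differences in response 7 were positive, with a median of 0.21 against 0.02 over all genes. Scaled to the hybridization controls 68 genes passed as higher and 78 as lower, against 239 and 162 as deposited. A fall that passed in memory-derived cells alone is not shown to differ from the response of naive-derived cells.

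Other S100 genes lie beside S100a4 and S100a6 on chromosome 3: in the RefSeq gene order (GRCm38.p6) S100a4, S100a5 and S100a6 follow each other, and S100a10 follows S100a11 farther along. S100a5, which lies between S100a4 and S100a6, moved in the opposite direction to S100a4. S100a5 lay at 2.52, 1.98 and 2.30 before and at 3.29, 3.50 and 3.46 after stimulation in memory-derived cells, and at 3.85 and 3.59 before and at 4.31, 4.18 and 4.32 after it in naive-derived cells. The 4 groups did not overlap, and the order of groups was the reverse of that of S100a4. S100a5 rose on stimulation of memory-derived cells by 1.15 (SE 0.15, adjusted p = 0.000443) and was higher in naive-derived cells by 1.45 (SE 0.17, adjusted p = 0.000370) before and 0.85 (SE 0.15, adjusted p = 0.0108) after stimulation. The last of these did not pass without memory-derived stimulated array 1 (adjusted p = 0.0532, limma). It was also lost with arrays 1 and 2 of each group only (0.118) and scaled to the hybridization controls (0.0657). S100a5 was dim: its memory-derived unstimulated arrays lay at 1.98 to 2.52, against a filter level of 1.54. S100a13, another member of the cluster, fell on stimulation of memory-derived cells with a log2 difference of -0.75 (SE 0.13, adjusted p = 0.00140) and was lower in naive-derived cells before stimulation with a log2 difference of -0.70 (SE 0.14, adjusted p = 0.00475). Of 11 other S100 genes 6 could be tested, and 1 passed as higher and 1 as lower on stimulation of memory-derived cells and for each origin comparison. The shares of all tested genes in these comparisons are given above with the counts of the members.

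**Figure D4:**
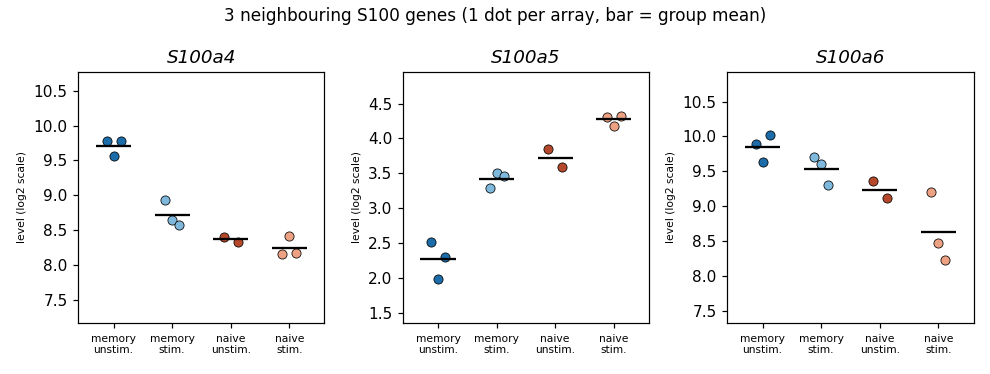
Levels (log2 scale, vertical axes of equal span starting at different levels) of S100a4, S100a5 and S100a6, which follow each other on chromosome 3, with 1 dot per array and a bar at the mean of each of 4 groups. S100a5 runs from 1.98 to 4.32 in the reverse order of groups to S100a4, which runs from 9.78 to 8.16.

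The medians of the related lists below stand against medians of all tested genes between -0.01 and 0.02, which the normalization keeps near 0. Their counts stand against the shares of all tested genes that passed. On stimulation of memory-derived cells these were 17.3% as lower and 14.3% as higher. For origin they were 14.9% as lower and 10.9% as higher before stimulation, and 2.01% and 1.69% after it. Among 10 other annexins 7 could be tested. On stimulation of memory-derived cells 2 fell and 1 rose, with a median of -0.36, and before stimulation 4 were lower and 0 higher in naive-derived cells, with a median of -0.44. Anxa6, a large annexin of membranes and endosomes, fell with a log2 difference of -1.30 (SE 0.16, adjusted p = 0.000318) on stimulation and was lower in naive-derived cells with a log2 difference of -0.89 (SE 0.18, adjusted p = 0.00517). Anxa3 was lower in naive-derived cells in both states, with a log2 difference of -1.30 (SE 0.16, adjusted p = 0.000409) and -1.83 (SE 0.14, adjusted p = 5.51e-05), the only other annexin to pass after stimulation. Among 9 other galectins and galectin-related genes, all tested, 3 fell and 1 rose on stimulation of memory-derived cells (median -0.25), and 3 were lower and 1 higher in naive-derived cells before stimulation (median -0.23). Lgals9 (galectin-9, a ligand of the inhibitory receptor TIM-3) fell with a log2 difference of -1.76 (SE 0.17, adjusted p = 0.000104), and Lgals8 fell with a log2 difference of -1.29 (SE 0.19, adjusted p = 0.000774) and was lower in naive-derived cells with a log2 difference of -1.25 (SE 0.21, adjusted p = 0.00217). Mgat5, the enzyme that branches N-glycans into preferred galectin ligands, was lower in naive-derived cells before stimulation with a log2 difference of -1.66 (SE 0.16, adjusted p = 0.000176) and after it with a log2 difference of -2.01 (SE 0.15, adjusted p = 4.61e-05).

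Binding partners and cytoskeletal relatives of the members were counted in the same way. Of 20 listed, 18 were tested: 9 fell and 3 rose on stimulation of memory-derived cells (median -0.57), and 7 were lower and 2 higher in naive-derived cells before stimulation (median -0.50). After stimulation 1 was higher and 0 lower, and in naive-derived cells 0 passed on stimulation. Myh9, the heavy chain of the non-muscle myosin that S100a4 binds, fell with a log2 difference of -1.80 (SE 0.24, adjusted p = 0.000514) in memory-derived cells and was lower in naive-derived cells with a log2 difference of -1.26 (SE 0.27, adjusted p = 0.00727); the latter did not pass without naive-derived unstimulated array 2 (adjusted p = 0.0636, limma). Plec, encoding plectin, which links vimentin filaments to other structures, fell with a log2 difference of -1.99 (SE 0.29, adjusted p = 0.000650) and was lower in naive-derived cells with a log2 difference of -1.61 (SE 0.32, adjusted p = 0.00471).

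Other genes known to be higher in effector and memory than in naive T cells were also counted. Of 25, 23 were tested: 11 fell and 4 rose on stimulation of memory-derived cells (median -0.62), 10 were lower and 2 higher in naive-derived cells before stimulation (median -0.71), and 8 were lower and 2 higher after it (median -0.20). Klrg1, a receptor of late effector cells, was lower in naive-derived cells with a log2 difference of -3.85 (SE 0.40, adjusted p = 0.000208) before stimulation, the chemokine receptor gene Ccr2 with a log2 difference of -3.56 (SE 0.24, adjusted p = 2.86e-05) and the granzyme gene Gzmk with a log2 difference of -3.41 (SE 0.20, adjusted p = 1.13e-05). Of 17 genes known to be higher in naive than in effector cells, 14 were tested: 6 were lower and 2 higher in naive-derived cells before stimulation (median 0.15), and 3 were higher and 0 lower after it (median 0.09). Il7r, the interleukin 7 receptor gene, was lower with a log2 difference of -1.40 (SE 0.31, adjusted p = 0.00763) and did not pass without naive-derived unstimulated array 1 (0.0600, limma), and Foxp1, a transcription factor of quiescent T cells, was higher by 1.10 (SE 0.13, adjusted p = 0.000409).

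Over the 11 arrays, which share 4 groups, the members followed each other to differing degrees. Of 36 pairs of members 24 had a Pearson correlation above 0.5, the median was 0.732, and S100a10 and Lgals1 were the closest pair at 0.97. The lowest was Anxa2 with Vim, at -0.54, the only pair below -0.5. No share over all gene pairs was computed, and the group differences given above enter every correlation, so these values are description only. Of all tested genes the one most like each member over the arrays was Snx6 (r = 0.989) for S100a4, Grap2 (r = 0.971) for S100a6, Nnt (r = 0.985) for S100a10, Tbc1d22a (r = 0.988) for Anxa1 and Ptger3 (r = 0.969) for Anxa2. For the others it was Umad1 (r = 0.995) for Lgals1, Anxa5 (r = 0.982) for Lgals3, Fut8 (r = 0.925) for Vim and Gimap7 (r = 0.991) for Crip1. The gene most like Lgals3 was an annexin, Anxa5, but each of these genes is the closest of all tested genes and no background was computed.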

How the data were processed

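RNA of 11 samples was measured on Affymetrix arrays. The deposited values are taken to be log10 signals: the hybridization controls bioB (1.5 pM), bioC (5 pM), bioD (25 pM) and cre (100 pM) averaged 1.38, 1.87, 2.58 and 3.65, steps of 0.944, 1.02 and 1.77 per log10 of concentration, which leaves the base inferred. Per the submitters' processing notes Affymetrix Expression Console was used; the summarization method is not given in the sources used here. All arrays held the same sorted values, so the authors had quantile normalized them. A shift common to most genes would thus not show. The spread of each gene between arrays remains and enters its SE.

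Values were multiplied by 3.32 to a log2 scale. Of the probe sets, apart from 64 controls, the annotation used here gave 34945 a single gene symbol, gave 932 several and did not list 9160. Each gene was represented by its probe set with the highest mean. A limma model (lmFit, eBayes; version 3.58.1, run under R 4.3.3) of the 4 groups was fitted to all genes tested, with residual degrees of freedom of 7 and a prior worth 3.86, and was checked on simulated data. Probe sets were also tested singly. Figures were drawn with matplotlib 3.10.9 in Python 3.11.15.

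Groups share replicate numbers, per the labels, but these were not taken to pair arrays. The members and gene lists were chosen with earlier results of these data known. All members are given whatever their result; of a related list, at most the 3 largest changes that passed in a comparison are named.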

Additional observations from a re-analysis of the deposited data

Results flagged for a closer look

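The response to stimulation differed between origins (limma, adjusted p below 0.05 over all genes) for 8 genes of the related lists, and for 0 of the members. Of all tested genes 1.62% passed there as higher and 1.09% as lower. Values are the log2 response of naive-derived minus that of memory-derived cells. Lgals9 differed by 1.40, from a response of -1.76 in memory-derived and -0.36 in naive-derived cells. Plec differed by 1.93, from -1.99 and -0.06. Ccr2 differed by 2.28, from -3.03 and -0.75. Among other effector genes, Emp3 differed by 0.88, Fasl by 0.90, Ctsw by 0.81 and the granzyme gene Gzmb by 0.86, the last from -0.24 and 0.62. S100a16 differed by -1.49, from 0.28 and -1.21, but its probe set lay above the filter on only 1 of the 3 naive-derived stimulated arrays, so that its level there is uncertain. With arrays left out 1 at a time, Ccr2 lost the call without any of 3 of the 11, and Lgals9 without any of 7. Plec, Emp3 and Fasl lost it without any of 8, S100a16 and Ctsw without any of 9, and Gzmb without any of 10.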

How the results depend on the processing

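The values of the members kept their direction except as given here. On stimulation of naive-derived cells, with arrays left out in turn, Anxa1 ranged from -0.28 to 0.39 and Lgals3 from -0.28 to 0.58. For origin before stimulation Vim ranged from -0.63 to 0.24, and was 0.15 with the mean of all probe sets. The difference in response, with arrays left out in turn, ranged from -0.10 to 0.10 for S100a10 and from -0.22 to 0.64 for Lgals3; for S100a10 it was 0.41 with the mean of its probe sets. None of these passed in any setting.

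Counts of genes and members moved as follows. On stimulation of memory-derived cells 4675 genes passed, and 2755 with arrays 1 and 2 of each group only, 3035 scaled to the hybridization controls and 7608 probe sets taken singly; 7 members passed, and 4 with arrays 1 and 2 of each group only. On stimulation of naive-derived cells 2 genes passed, and 0 with the replicate block, with no filter on dim probe sets or with only the groups compared, 1 with arrays 1 and 2 of each group only, scaled to the controls or with a stricter filter, 13 with an intensity trend and robust prior, and 0 to 5 with an array left out. For origin before stimulation 3819 genes passed, and 1843 to 4161 with an array left out, 2407 scaled to the controls, 6073 probe sets singly and 2376 with only the groups compared. There 7 members passed, and 5 to 8 with an array left out. For origin after stimulation 548 genes passed, and 287 to 701 with an array left out and 258 with arrays 1 and 2 of each group only; 3 members passed, and 2 to 6 with an array left out, 1 with arrays 1 and 2 of each group only or with the mean of probe sets, and 5 with a trend and robust prior. The difference in response passed for 401 genes, and for 26 with the replicate block, 891 with origin by array number as a random block (correlation 0.122), 0 to 1505 with an array left out, 49 with arrays 1 and 2 of each group only, 146 scaled to the controls, 174 with no filter, 1064 with a stricter filter and 1120 with a trend and robust prior. Of the members 0 passed there, and 0 to 1 with an array left out and 1 (S100a4) with the random block, the mean of probe sets, a stricter filter or a trend and robust prior. The cause of these moves was not tested.

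With arrays 1 and 2 of each group only, S100a10, Anxa1 and Lgals1 no longer passed on stimulation of memory-derived cells, nor Lgals3 for origin before or S100a10 and Lgals1 after stimulation. Scaled to the controls, S100a10 and Lgals1 on stimulation, Crip1 for origin before and S100a10 after stimulation were lost, and Anxa1 passed after it. After stimulation S100a4 passed for origin with a trend and robust prior, and S100a10 did not with the mean of probe sets. Of 53 changes named or open to naming in the related lists, 53 kept their direction and 34 their call in every alternative.

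Nothing in the labels ties arrays of different groups that share a replicate number. Their deviations from group means correlated at -0.0716 to 0.112 (median 0.0341, 15 pairs), against -0.131 to 0.112 for other numbers (30 pairs), and for 6 of the 11 arrays the closest array of another group had the same number. With the replicate block, S100a6 passed (adjusted p = 0.0478, limma) and S100a10 did not (0.0516) for origin after stimulation, the difference in response of S100a10 was -0.012, and no other member's call changed. The block left 10 of the 53 changes in the related lists without a call, among them all 8 differences in response (adjusted p of the 8 from 0.0536 for Ccr2 to 0.0975 for Gzmb).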
